A study of Homo sapiens with 4 samples.

Results

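The BEX family (brain-expressed X-linked) comprised 5 genes, BEX1, BEX2, NGFRAP1 (now named BEX3), BEX4 and BEX5, among 28285 gene rows. They were taken by gene symbol from the tables of all 4 libraries. The family was chosen by the measured TPM of BEX1, which was higher in GFP-positive than in GFP-negative cells. Differences between these fractions are therefore given for its members as a description, and where a threshold is mentioned for BEX1 it restates that choice. The cells were derived from H1, a widely used line of human embryonic stem cells. The genotype given for both fractions is a GATA2/eGFP knockin, in which an enhanced green fluorescent protein reporter sits at GATA2, whose product is a transcription factor needed by early blood cells. All 4 titles also name Cre, whose role the labels do not give. GFP-positive cells (2 libraries) were positive for eGFP, CD34 and CD31 and negative for CD43. The labels call them hemogenic endothelium, that is, vessel-lining cells able to give rise to blood. GFP-negative cells (2 libraries) had the same CD34, CD31 and CD43 status without eGFP and were called endothelial cells, although their source name and titles also carry hemogenic endothelium. Neither the day of differentiation nor separate cultures for the replicates are named, so the spread between libraries may be technical, and every cell descends from a single line.

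BEX genes encode small, largely unstructured proteins and are found in placental mammals, where they sit beside the related TCEAL genes on the X chromosome. They are best known from brain, and their proteins have been tied to the neurotrophin receptor p75NTR, to the blood transcription cofactor LMO2 and to cell survival. BEX1 and NGFRAP1 bind or signal with p75NTR, BEX2 has been reported to join an LMO2-containing complex, and BEX4 to act on tubulin acetylation with SIRT2.

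BEX1, an adaptor-like protein of p75NTR signalling, was the member that differed most by level. It had 674 and 526 TPM in the GFP-positive libraries, against 181 and 198 TPM in the GFP-negative libraries. TPM is a length-corrected share of all transcripts, so levels can be set beside each other across genes. The fractions did not overlap, BEX1 being high in GFP-positive cells, and the gap between fractions was larger than the gap between replicates in either. The GFP-positive mean was 600.3 ± 105 TPM and the GFP-negative mean 189.8 ± 12.2 TPM (SD, n = 2 libraries per fraction), a ratio of 3.16. The log2 fold change was 1.65 ± 0.16 (SE), from a limma fit of log2(TPM + 1) over all genes. This is the value behind the choice of the family. BEX1 ranked 167 and 231 of all rows in the GFP-positive libraries and 1011 and 896 in the GFP-negative libraries. In a bulk sample, fewer cells that make a transcript and less of it in each cell cannot be told apart.

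NGFRAP1, whose product is a p75NTR-associated promoter of cell death, had 313 and 288 TPM in GFP-positive cells and 285 and 299 TPM in GFP-negative cells. The fractions overlapped, and the log2 fold change was 0.04 ± 0.13 (SE). BEX4, the tubulin-associated member, had 155 and 111 TPM in GFP-positive cells and 138 and 119 TPM in GFP-negative cells. Its fractions overlapped too, the GFP-positive libraries enclosing both GFP-negative ones, with a log2 fold change of 0.03 ± 0.21. For both genes the sign depended on the processing. NGFRAP1 had -0.02 without GFP-positive replicate 1, and BEX4 had -0.21 without that library, -0.08 without GFP-negative replicate 2 and -0.0033 under upper quartile scaling.

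BEX2, the member reported with LMO2, was low. It had 11.8 and 10.4 TPM in GFP-positive cells and 16.5 and 12.9 TPM in GFP-negative cells. Its GFP-positive libraries were both the lower, but the log2 fold change of -0.36 ± 0.34 (SE) was about the size of its error. BEX5, the least abundant member, had 3.07 TPM in GFP-positive replicate 1 and was listed at 0 in GFP-positive replicate 2, against 4.82 and 3.49 TPM in the GFP-negative libraries. The fitted log2 fold change of BEX5 was -1.34 ± 0.76, and it was -0.33 without GFP-positive replicate 2, the library listed at 0, and -2.35 without GFP-positive replicate 1.

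**Figure D1:**
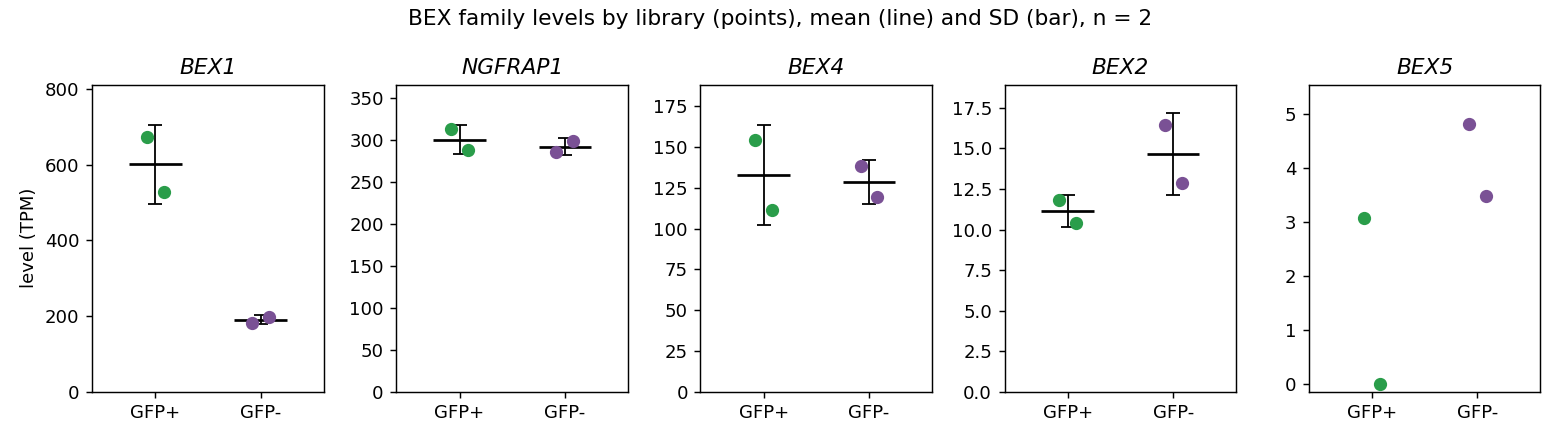
Level in TPM of each BEX gene in the 4 libraries, GFP-positive (GFP+, green) left of GFP-negative (GFP-, purple), with mean and SD (n = 2) except for BEX5, which has a library listed at 0. Each panel has its own scale. BEX1 lies at 674 and 526 TPM in GFP-positive cells against 181 and 198 TPM in GFP-negative cells, while NGFRAP1 and BEX4 overlap.

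All 5 members passed the filter of at least 1 TPM in at least 2 libraries. In the limma fit 1 of the 5, BEX1, was past a Benjamini-Hochberg adjusted p of 0.05, where 0.447% of 15425 tested genes were, 0.123% in the higher and 0.324% in the lower direction. Likewise 1 of the 5 had an unadjusted p under 0.05, against 14.1% of tested genes. The libraries of the fractions did not overlap for 3 of the 5 members (BEX1 higher, BEX2 and BEX5 lower), against 44.3% of all tested genes, 22.8% in the higher and 21.5% in the lower direction. The family was chosen on this contrast, so these counts are no test of its members and nothing is read from them. The family's median log2 fold change was 0.03, beside 0.02 over all genes tested. BEX1 ranked 3 by GFP-positive level and 16 by log2 fold change among the 19 genes past the threshold in that direction. It missed the threshold without GFP-negative replicate 1 (limma adjusted p = 0.0664) and under 3 other settings, including a filter on low values left out.

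Within the family the order of levels differed between the fractions. In both GFP-positive libraries it ran BEX1, NGFRAP1, BEX4, BEX2, BEX5, and in both GFP-negative libraries NGFRAP1 came before BEX1, with the rest in the same order. In neither fraction did the library values of neighbours in the order overlap. The TPM ratio of BEX1 to NGFRAP1 was 2.16 and 1.83 in GFP-positive cells, against 0.636 and 0.664 in GFP-negative cells. BEX1 over BEX2, its closest relative by coding sequence, was 57.0 and 50.5 in GFP-positive cells, against 11.0 and 15.4 in GFP-negative cells. The order and the ratios with BEX1 restate the BEX1 difference on which the family was chosen, and are no further result. The ratio of NGFRAP1 to BEX4, which leaves BEX1 out, was 2.02 and 2.59 in GFP-positive cells and 2.06 and 2.51 in GFP-negative cells. There the fractions overlapped.

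The summed level of the 5 genes was 1156.2 and 935.7 TPM in GFP-positive cells, against 625.6 and 632.8 TPM in GFP-negative cells. Without BEX1 the sums were 482.0 and 409.3 TPM in GFP-positive cells, against 444.5 and 434.3 TPM in GFP-negative cells, and they overlapped. BEX1 made up 58.3% and 56.3% of the family's sum in GFP-positive cells, against 29.0% and 31.4% in GFP-negative cells. NGFRAP1 made up 27.0% and 30.8% in GFP-positive cells, against 45.5% and 47.2% in GFP-negative cells. The share of BEX4 was 13.4% and 11.9% in GFP-positive cells, against 22.1% and 18.8% in GFP-negative cells, and BEX2 and BEX5 never held more than 2.6% each. The shares of NGFRAP1 and BEX4 were lower in GFP-positive cells while their TPM levels overlapped, since the sum contains BEX1. The higher sum and the higher BEX1 share restate the same BEX1 difference.

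**Figure D2:**
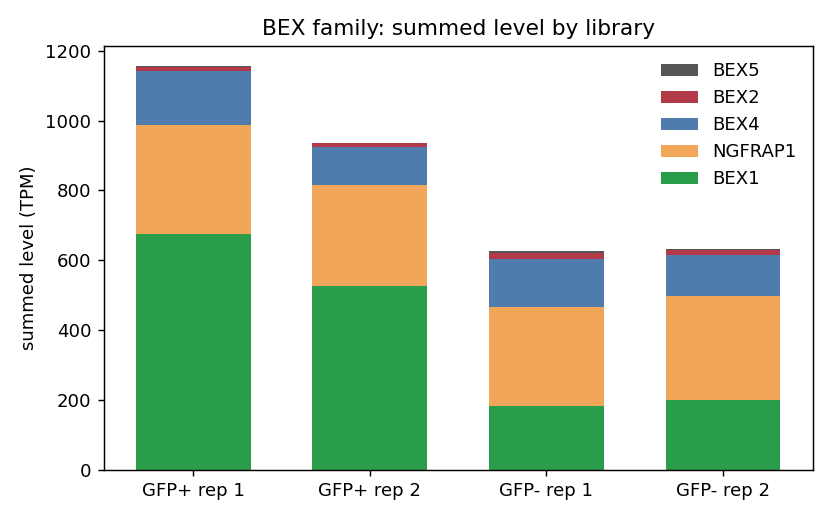
Summed TPM of the 5 BEX genes in each library (y axis, from 0), GFP-positive libraries left of GFP-negative ones, with 1 colour per gene. The bars reach 1156.2 and 935.7 TPM in GFP-positive cells against 625.6 and 632.8 TPM in GFP-negative cells. The green BEX1 segment holds 58.3% and 56.3% of the bar in GFP-positive cells against 29.0% and 31.4% in GFP-negative cells.

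BEX1 and BEX2 are near copies in their coding parts, so reads from them can be hard to assign. In GENCODE v29 their coding sequences were identical at 92.2% of alignment columns, with a longest identical run of 75 bases, while the other pairs of members ranged from 60.1% (BEX2 and NGFRAP1) to 73.3% (NGFRAP1 and BEX5). The start of the BEX1 coding part and the matching stretch of BEX2 are shown to let the near identity be seen. Each lies in the last exon, on the minus strand of chromosome X in GRCh38, BEX1 at chrX:103063044-103063274 and BEX2 at chrX:103309737-103309976. Capitals mark bases that differ in, or are missing from, the other gene.
BEX1: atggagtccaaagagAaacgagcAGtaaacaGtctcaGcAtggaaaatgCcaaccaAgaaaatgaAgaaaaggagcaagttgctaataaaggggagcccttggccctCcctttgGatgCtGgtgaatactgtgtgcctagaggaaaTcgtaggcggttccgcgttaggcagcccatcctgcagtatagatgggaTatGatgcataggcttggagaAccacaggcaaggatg
BEX2: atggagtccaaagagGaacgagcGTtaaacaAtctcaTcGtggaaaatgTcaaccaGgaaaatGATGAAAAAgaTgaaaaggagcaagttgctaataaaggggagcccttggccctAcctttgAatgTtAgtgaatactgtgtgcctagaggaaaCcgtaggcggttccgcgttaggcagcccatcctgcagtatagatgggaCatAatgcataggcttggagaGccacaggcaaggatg
There were 17 such bases among the 231 of BEX1 and 26 among the 240 of BEX2. Of all distinct stretches of 36 bases in BEX1 transcripts, 8.56% also occurred in transcripts of another gene, 64 of them in BEX2 and 7 in ARMCX4. At 50 bases the share was 3.19%, and at 75 bases 0.127%. For BEX2 the shares were 6.65%, 2.38% and 0.0762%. NGFRAP1 and BEX5 shared none with another gene at any of these lengths, and BEX4 shared 1.36% at 36 bases. The read length is not given in the sources used here. Most of each transcript was therefore distinguishable at these lengths, but the split of reads within the shared stretches between BEX1 and BEX2 is uncertain. No other annotated gene overlapped any of the 5.

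The genes lie on the long arm of chromosome X (GENCODE v29 on GRCh38, matched by Ensembl identifier, since the build behind the deposited tables is not certain). BEX1 (ENSG00000133169) spans 103062651 to 103064240 on the minus strand, and BEX2 (ENSG00000133134) spans 103309346 to 103311046 on the minus strand. NGFRAP1 (ENSG00000166681) spans 103376340 to 103378077 and BEX4 (ENSG00000102409) spans 103215092 to 103217246, both on the plus strand. BEX5 (ENSG00000184515) spans 102153708 to 102156057 on the minus strand. Its start lay at -908.2 kb from that of BEX1, whereas the other members started at 150.9 to 312.1 kb. In the transcript with the longest coding part, every member had 3 exons. The coding part lay within 1 exon in each except BEX2, where it spread over 3 in this transcript, 1 of 4 listed. The BEX2 stretch shown above, which matches the start of the BEX1 coding part, lay in 1 exon.

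The promoters pair the members differently from the coding sequences. RefSeq windows of 250 bases before to 50 bases after a start (GRCh38.p14) were listed for all 5 genes, 9 windows in all, some of them overlapping. The BEX1 window was identical to an NGFRAP1 window at 77.8% of 302 alignment columns, and the BEX2 window to a BEX4 window at 83.8% of 303. Between BEX1 and BEX2 the identity was 53.7%, although their coding parts are the closest of all pairs. These 4 windows are shown because they set BEX1, whose level differed between fractions, beside NGFRAP1, whose levels overlapped, and the closely matched BEX2 and BEX4. Where a gene had several windows, the one with the most bases identical to its partner was taken. Capitals mark CACGTG, the core of the E-box, a motif bound by basic helix-loop-helix factors, and the windows lie at chrX:103064122-103064421 (BEX1, minus strand), chrX:103376288-103376587 (NGFRAP1, plus strand), chrX:103310941-103311240 (BEX2, minus strand) and chrX:103214858-103215157 (BEX4, plus strand).
BEX1: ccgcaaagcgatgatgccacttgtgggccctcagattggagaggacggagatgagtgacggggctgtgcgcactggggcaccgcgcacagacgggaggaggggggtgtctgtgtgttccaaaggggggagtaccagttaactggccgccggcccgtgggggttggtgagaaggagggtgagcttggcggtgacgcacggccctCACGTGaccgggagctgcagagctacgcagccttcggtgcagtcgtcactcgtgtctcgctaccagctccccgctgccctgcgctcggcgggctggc
NGFRAP1: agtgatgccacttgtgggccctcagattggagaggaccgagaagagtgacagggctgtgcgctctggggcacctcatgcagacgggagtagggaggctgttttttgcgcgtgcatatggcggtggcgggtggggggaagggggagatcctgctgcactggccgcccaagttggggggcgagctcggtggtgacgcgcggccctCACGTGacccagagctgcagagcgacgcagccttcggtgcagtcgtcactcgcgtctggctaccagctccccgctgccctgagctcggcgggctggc
BEX2: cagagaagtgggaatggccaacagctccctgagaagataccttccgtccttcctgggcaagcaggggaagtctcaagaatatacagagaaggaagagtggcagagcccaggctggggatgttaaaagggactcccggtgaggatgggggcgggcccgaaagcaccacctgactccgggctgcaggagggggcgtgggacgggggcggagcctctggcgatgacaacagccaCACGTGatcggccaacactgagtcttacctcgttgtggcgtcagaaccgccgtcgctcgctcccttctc
BEX4: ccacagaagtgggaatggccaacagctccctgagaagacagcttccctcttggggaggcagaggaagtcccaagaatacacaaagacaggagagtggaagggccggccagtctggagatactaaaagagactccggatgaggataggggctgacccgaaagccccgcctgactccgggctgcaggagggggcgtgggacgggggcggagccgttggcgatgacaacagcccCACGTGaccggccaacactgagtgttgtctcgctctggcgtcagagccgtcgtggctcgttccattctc
CACGTG, which reads the same on both strands, began at base 204 of the window in BEX1 and NGFRAP1 and at base 232 in BEX2 and BEX4. It was absent from both BEX5 windows and from the other 2 NGFRAP1 windows. Among all RefSeq windows 7.26% held it, and of 27305 genes with a window 8.77% had it in at least 1. The motif was picked after the sequences had been read. Of TCEAL genes with a window, 7 of 8 held CACGTG, and of GPRASP and ARMCX genes, 5 of 8. The longer CACGTGAC stood in windows of BEX1, NGFRAP1 and BEX4, of 4 of 8 TCEAL genes and of 4 of 8 GPRASP and ARMCX genes, against 2.93% of all genes.

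The GATA motifs AGATAA and TGATAA, searched on both strands, were in 0 of the 9 windows, and 16.3% of all windows held at least 1 of them. The RUNX motif TGTGGT was in 1 BEX5 window (13.1% of all windows), and the ETS motif CGGAAG in the BEX2 window (19.5%). The GC box GGGCGG was found for every member but BEX1 (45.0% of all windows), and the TATA box TATAAA for none (11.5%). GC content was 67.0% in the shown windows of BEX1 and NGFRAP1 and 61.3% in those of BEX2 and BEX4, beside a median of 58.7% over all windows. CpG observed over expected was 0.77 for BEX1 and 0.71 for NGFRAP1, beside a median of 0.58. A match says nothing of binding, and a missing match speaks for these windows only.

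Among the 10 protein-coding genes with a row on each side of BEX1, 17 were tested, the other 4 BEX genes among them. With limma 0 of the 17 rose and 0 fell, where 0.447% of all tested genes passed. The median log2 fold change of the 17 was -0.04, with a range of -1.34 (BEX5) to 1.26 (TCEAL5). NXF3, a member of the RNA export factor family and the next gene 28.9 kb away, had 21.8 and 28.9 TPM in GFP-positive cells, against 13.7 and 8.74 TPM in GFP-negative cells. Its libraries did not overlap, and it did not pass (log2 fold change 1.13 ± 0.35, SE; limma adjusted p = 0.248). The 511 tested genes with a GENCODE position on chromosome X had a median of 0.02, as all tested genes had.

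**Figure D3:**
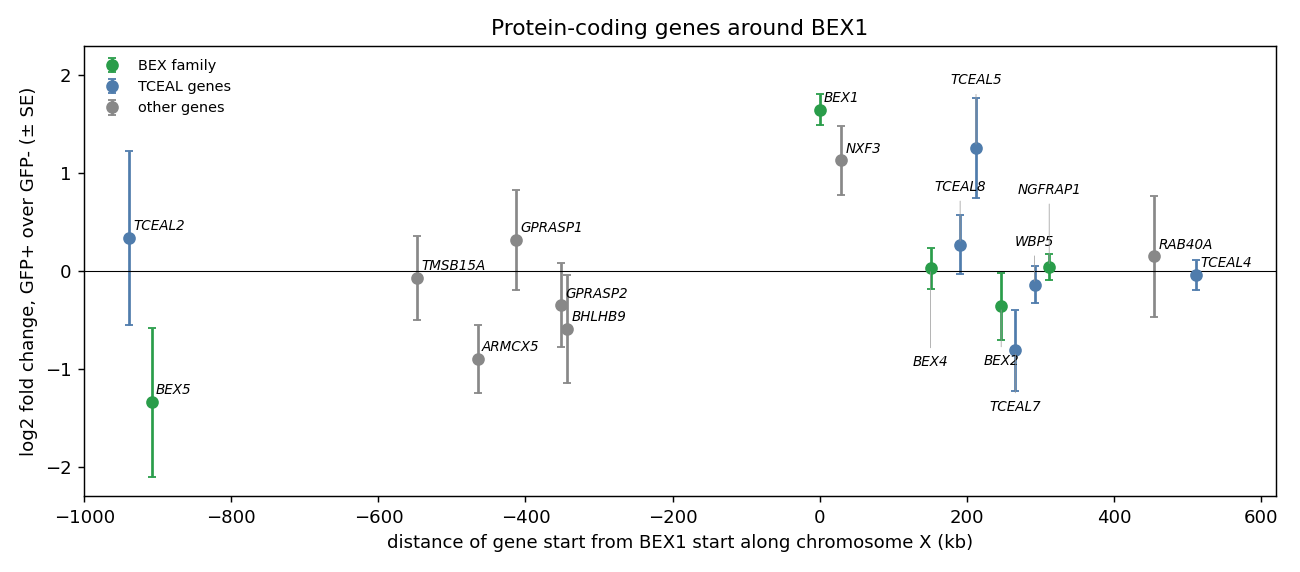
Log2 fold change (y axis, GFP-positive over GFP-negative, with SE) of tested protein-coding genes around BEX1, by distance of their start from the BEX1 start in kb. BEX1 stands at 1.65, and BEX4 and NGFRAP1 at 0.03 and 0.04. Of the 17 neighbours 0 passed, where 0.447% of all tested genes did.

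The TCEAL genes, transcription elongation factor A-like relatives that share the cluster, were measured at all 9 members and tested at 8. With limma 0 rose and 0 fell, where 0.447% of all tested genes passed, and 1 of the 8 had an unadjusted p under 0.05, where 14.1% of all tested genes had. The median log2 fold change was 0.11, with 4 above 0 and 4 below. The abundant members were close between fractions. TCEAL4 had 112 and 117 TPM in GFP-positive cells and 115 and 122 TPM in GFP-negative cells. WBP5 (TCEAL9) had 156 and 115 TPM in GFP-positive cells and 144 and 152 TPM in GFP-negative cells, and TCEAL8 had 163 and 94.8 TPM in GFP-positive cells and 121 and 87.7 TPM in GFP-negative cells. All 3 overlapped. Of the low members, TCEAL5 had 3.23 and 2.50 TPM in GFP-positive cells, against 0.50 and 0.71 TPM in GFP-negative cells (log2 fold change 1.26 ± 0.51, SE; limma adjusted p = 0.347). TCEAL7 had 6.11 and 4.58 TPM in GFP-positive cells, against 8.77 and 11.4 TPM in GFP-negative cells (-0.81 ± 0.41; limma adjusted p = 0.445). The other tested members, TCEAL1, TCEAL2 and TCEAL3, had log2 fold changes of 0.31, 0.34 and -0.22, and TCEAL6 was listed at 0 in all 4 libraries.

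GPRASP and ARMCX genes, further X-linked relatives that encode receptor-sorting and armadillo-repeat proteins, had 9 tested members with a median of -0.36 (log2 fold change), 6 of them below 0. With limma 0 rose and 0 fell, where 0.447% of all tested genes passed. An unadjusted p under 0.05 was found for 2 of the 9, beside 14.1% of all tested genes. ARMCX2 had 16.6 and 18.2 TPM in GFP-positive cells, against 43.3 and 48.8 TPM in GFP-negative cells (log2 fold change -1.35 ± 0.24, SE; limma adjusted p = 0.0878). ARMCX5 had 7.97 and 7.22 TPM in GFP-positive cells, against 13.8 and 16.5 TPM in GFP-negative cells (-0.90 ± 0.35; limma adjusted p = 0.327). Libraries of both genes did not overlap, in the direction opposite to BEX1. The same lack of overlap was seen for 6 of the 9 members, beside 44.3% of all tested genes. Of the 6, GPRASP1 was higher in GFP-positive cells and the rest were lower.

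The receptor most closely tied to BEX proteins was low. NGFR, the gene of p75NTR, had 1.66 and 1.11 TPM in GFP-positive cells, against 0.99 and 0.79 TPM in GFP-negative cells, far below BEX1 or NGFRAP1 in every library. Of the neurotrophin ligand genes, NTF4 was listed at 0 in all libraries, and BDNF and NTF3 stood below 1 TPM in each. MAPK8, a stress kinase downstream of p75NTR, had 54.9 and 21.0 TPM in GFP-positive cells, against 56.0 and 79.7 TPM in GFP-negative cells (log2 fold change -0.95 ± 0.45, SE; limma adjusted p = 0.418). Of 27 neurotrophin and p75NTR pathway genes 22 were tested. With limma 0 of these rose and 0 fell, where 0.447% of all tested genes passed. The median of the 22 was -0.09, and 3 of them had an unadjusted p under 0.05, a share near the 14.1% of all tested genes.

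Of 11 genes whose products have been reported to bind BEX proteins, 10 were tested. With limma 0 of the 10 rose and 0 fell, where 0.447% of all tested genes passed. The median of the 10 was 0.05, and 3 of them had an unadjusted p under 0.05, beside 14.1% of all tested genes. LMO2, the blood transcription cofactor tied to BEX2, had 222 and 161 TPM in GFP-positive cells and 227 and 192 TPM in GFP-negative cells, overlapping, and so stood well above BEX2 in all 4 libraries. SIRT2, the deacetylase tied to BEX4, had 29.9 and 31.5 TPM in GFP-positive cells, against 65.2 and 48.2 TPM in GFP-negative cells (-0.85 ± 0.24; limma adjusted p = 0.202). PLK1, a mitotic kinase also tied to BEX4, had 157 and 105 TPM in GFP-positive cells, against 121 and 65.9 TPM in GFP-negative cells, overlapping (0.52 ± 0.34; limma adjusted p = 0.56).

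**Figure D4:**
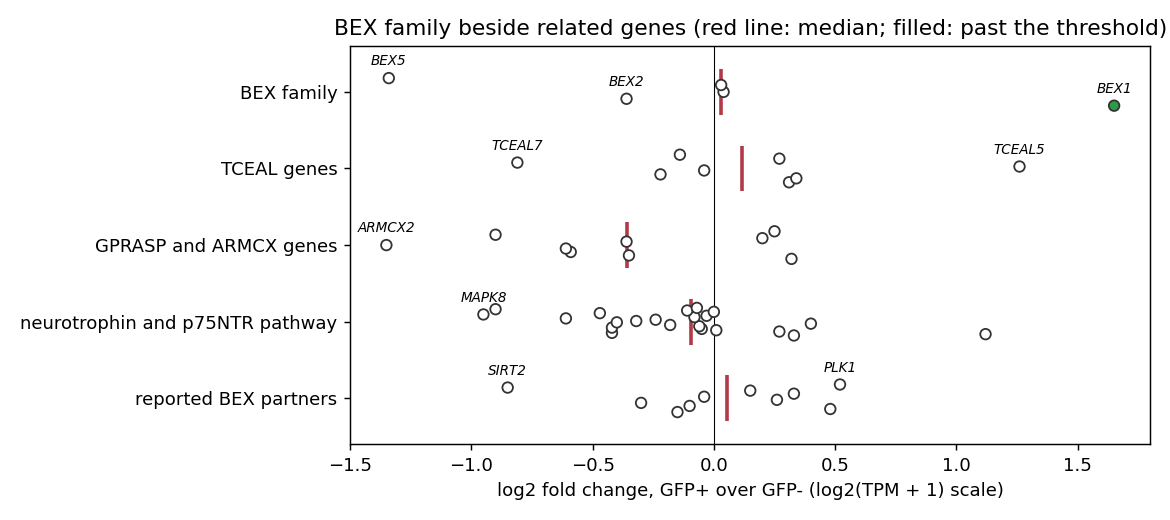
Log2 fold change (x axis, GFP-positive over GFP-negative) of tested genes in the BEX family and 4 related lists, with the list's median as a red line and genes past the limma threshold filled. BEX1, filled at 1.65, is the gene on which the family was chosen, so its place beside the other lists is no comparison. The medians of the lists lie between -0.36 and 0.11.

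The genes most like BEX1 across the 4 libraries, by Euclidean distance between centred log2(TPM + 1) values, were DGKB, FGFR3, P2RX1, SSX1 and AP001057.1, at distances of 0.0757 to 0.163. FGFR3, a fibroblast growth factor receptor, had 82.3 and 68.9 TPM in GFP-positive cells, against 23.2 and 25.2 TPM in GFP-negative cells. DGKB, a diacylglycerol kinase, had 20.3 and 14.6 TPM in GFP-positive cells, against 4.70 and 5.21 TPM in GFP-negative cells. P2RX1, an ATP-gated channel of platelets, had 22.2 and 18.5 TPM in GFP-positive cells, against 5.47 and 6.50 TPM in GFP-negative cells. SSX1, which is also X-linked, and AP001057.1 were listed at 0 in both GFP-negative libraries and stayed below 3 TPM elsewhere. All 5 were higher in both GFP-positive libraries, and the likeness, taken over the same 4 libraries that chose BEX1, carries no test.

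Across the series, TPM sums were 996323.64 to 997292.9 per library, 14730 to 15109 genes reached 1 TPM, and read depth is unknown. GATA2, whose reporter defines the fractions, had 302 and 385 TPM in GFP-positive cells, against 80.2 and 87.3 TPM in GFP-negative cells. All 8 endothelial markers had log2 fold changes below 0, with summed levels of 1979.0 and 2111.5 TPM in GFP-positive cells, against 3612.6 and 3299.3 TPM in GFP-negative cells, and CDH5 (-1.10) and VWF (-1.16) among them. CLDN5, a junction marker, had 1.09 and 0 TPM in GFP-positive cells, against 7.46 and 5.36 TPM in GFP-negative cells. Of 7 tested hematopoietic markers 6 were above 0, including GATA1 (2.71 ± 0.78, SE) and SPI1 (1.69 ± 0.37). PTPRC was low and below 0 (-0.06 ± 0.71). Libraries did not overlap for 4 of the 7, beside 44.3% of all tested genes. The sums over all 8 were 137.2 and 165.4 TPM in GFP-positive cells, against 61.4 and 63.2 TPM in GFP-negative cells. MPO was at or near 0 in all libraries. All 7 mesenchymal markers were above 0, including COL1A1 (1.17) and COL3A1 (1.06), with sums of 611.7 and 666.8 TPM in GFP-positive cells, against 235.5 and 359.9 TPM in GFP-negative cells. With limma 0 genes of these 3 lists rose or fell, where 0.447% of all tested genes passed. The unadjusted p was under 0.05 for 8 of 8 endothelial, 3 of 7 hematopoietic and 2 of 7 mesenchymal markers. That share was 14.1% over all tested genes. The count of 0 for endothelial markers depended on the processing, with 2 lower past the threshold among genes with a mean above 5 TPM. For mesenchymal markers it was 1 higher without GFP-negative replicate 2. Markers of neurons, in which the family is best known, summed to 186.5 and 265.2 TPM in GFP-positive cells, against 236.3 and 353.8 TPM in GFP-negative cells, and overlapped. Most of that was TUBB3, while DCX and ELAVL3 were at or near 0. SYT1 (-1.33) and UCHL1 (-1.01) did not pass, and 2 of 7 tested were above 0. Pluripotent markers summed to 570.0 and 463.2 TPM in GFP-positive cells, against 396.0 and 389.4 TPM in GFP-negative cells, of which LIN28A (0.54) and DPPA4 (-0.08) held most, and 1 of 4 tested was above 0. POU5F1 had 0.93 and 0.03 TPM in GFP-positive cells, against 9.68 and 5.88 TPM in GFP-negative cells, and SOX2 was at or near 0. With limma 0 of the neuronal and 0 of the pluripotent markers passed, where 0.447% of all tested genes did. The unadjusted p was under 0.05 for 2 of 7 neuronal and 2 of 4 pluripotent markers, beside 14.1% of all tested genes. The hematopoietic, mesenchymal and pluripotent sums were higher in GFP-positive cells without overlap, as BEX1 was, and the endothelial sum was lower without overlap. LIN28A, which held most of the pluripotent sum, had 477 and 386 TPM in GFP-positive cells, against 304 and 287 TPM in GFP-negative cells. DPPA4 overlapped. Of all tested genes 44.3% did not overlap between the fractions. The part of these marker lists in the BEX1 difference was not tested.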

How the data were processed

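RNA of 4 libraries was sequenced, 2 of each sorted fraction, with groups and replicate numbers from the titles. Per the labels' protocols, total RNA was taken with Trizol and libraries were made with an Illumina TruSeq RNA kit. The authors deposited 1 table per library of Ensembl identifiers, symbols and TPM values. Bowtie, RSEM and the builds hg19 and mm10 are listed, per the submitters' processing notes, without versions or roles. The annotation, the strand setting and the read length are not stated in the labels or files. TPM keeps no read depth, so precision comes from the replicates.

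Limma 3.58.1 (R 4.3.3) was fitted with a variance trend to log2(TPM + 1), a scale that understates folds of low genes, for the 15425 genes that reached 1 TPM in 2 or more libraries. Two-sided p-values received a Benjamini-Hochberg adjustment over all of them, with 0.05 as threshold, and the fit was tested on simulated data. There 200 genes were changed, drawn from those with a mean log2(TPM + 1) above 3, so the rates do not cover low genes. The fit recovered 6.27% of genes given a log2 fold of 1, 53% of those given 2 and 82.4% of those given 3. A gene short of the threshold may therefore still differ between the fractions. With 87 repeated symbols, the row paired with its symbol in a gene name table was used, otherwise that with the highest mean. Sequences came from RefSeq (GRCh38.p14) and GENCODE v29, matched for 5 of 5 members, and were aligned globally with Biopython 1.88 (match 2, mismatch -1, gap opening -4, extension -1, free end gaps).

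The members and lists were chosen with earlier results of these data known. Named were all members, all detected TCEAL genes, the genes nearest to BEX1, and of each other list the genes past the threshold and the 2 largest changes at a mean of at least 5 TPM. Other genes were named for their role or low level, after their values had been seen. Some genes that this rule or their role would name are not reported here.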

Additional observations from a re-analysis of the deposited data

How the results depend on the processing

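The sign of BEX1 was positive in all 11 alternatives, and its call was not kept in 4 of them. The family was chosen on BEX1 in these same libraries, so neither its sign nor its calls are independent support. The limma adjusted p of BEX1 was 0.0662 with a pseudocount of 0.1, 0.264 without a filter and 0.157 with no trend in the variance. Its log2 fold change stayed at 1.65 in each. Leaving out single libraries, it ran from 1.47 to 1.82, and it missed at 1.58 without GFP-negative replicate 1. BEX2 and BEX5 were below 0 in every alternative run, except that BEX5 had no value with a mean above 5 TPM. With single libraries left out, NGFRAP1 ran from -0.02 (without GFP-positive replicate 1) to 0.10 and BEX4 from -0.21 (without the same library) to 0.27, with -0.08 without GFP-negative replicate 2. BEX4 had -0.0033 under upper quartile scaling. The count of genes past the threshold over the whole table, 69, was 0 when limma was run with pseudocount 0.1, without a filter or with no trend in the variance. Unadjusted p-values under 0.05 then numbered 2101, 2386 and 2072, in that order. It was 164 with a mean above 5 TPM, 107 with quantile normalization and 18 to 65 with single libraries left out, the lowest without GFP-negative replicate 1 (17 higher, 1 lower) and the highest without GFP-negative replicate 2 (36 higher, 29 lower). The cause was not tested. With the replicate number as a block, 596 genes passed, BEX1 among them (limma adjusted p = 0.000512). Over 15425 genes, the difference between replicates 1 and 2 in GFP-positive cells correlated at 0.0719 with that in GFP-negative cells. The labels do not say whether a replicate number marks a shared culture or sort. Under the block, 6 endothelial, 1 neuronal, 1 pluripotent and 1 of the GPRASP and ARMCX genes passed as lower, 3 hematopoietic and 2 mesenchymal markers as higher, and 0 TCEAL, neurotrophin or partner genes. Without the block, 2 endothelial markers passed as lower with a mean above 5 TPM, 1 each with upper quartile scaling, with quantile normalization and without GFP-negative replicate 2, where 1 mesenchymal marker passed as higher. List medians stayed on their side of 0 in all alternatives for GPRASP and ARMCX, neurotrophin, endothelial, hematopoietic, neuronal and mesenchymal genes, while TCEAL genes ran from -0.22 to 0.11, BEX partners from -0.07 to 0.18 and pluripotent markers from -0.29 to 0.25. Read depth is unknown, so what it limits could not be assessed.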
